A study of Mus musculus with 21 samples.

Results

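Islets of adult male CBA mice kept on a high-fat diet (HFD) made up 7 of the 21 RNA-seq samples, and they are described here as 4 samples with the replicate numbers 1 to 4 and 3 samples with the numbers 5 to 7, taken from the sample titles and from no measured value. The same numbers divide the 7 samples on regular diet (RD, a standard chow) and the 7 samples on HFD formulated with O304 (HFD-O304), a small molecule that activates AMP-activated protein kinase. The diets, which the study introduced in adult mice, were the difference between the groups, and the labels name no transgene or deletion. Each sample was RNA of 150 islets drawn from the pooled islets of 5 mice, so a replicate averages several animals. The labels give no date, litter or batch for any sample. The library serial numbers ran diet by diet for replicates 1 to 4, and in trios of RD, HFD and HFD-O304 for replicates 5 to 7. The diet tag of HFD-O304 replicate 1 reads HFD while its title reads HFD-O304, and the title was followed. Within HFD alone, handling or time that separates replicates 1 to 4 from 5 to 7 cannot be told apart from diet response strength. For this reason the same split in RD islets is given beside many of the lists and leading genes. It cannot remove handling that differed between diets within replicates 1 to 4, where the library numbers ran diet by diet. The comparisons of HFD with RD in replicates 1 to 4 and the tests of whether the split differed between diets share this limit.

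Islets are clusters of endocrine cells in the pancreas, most of which in mice are β-cells that make insulin. When obesity makes tissues resistant to insulin, β-cells secrete more, fold more proinsulin in the endoplasmic reticulum (ER) and enter the cell cycle. Under sustained high glucose they can lose transcripts of mature β-cells and gain transcripts of glucose toxicity. Txnip, which inhibits thioredoxin, is a known reporter of glucose in β-cells, since the glucose-responsive factor ChREBP drives its transcription. Heat shock proteins fold cytosolic proteins and are induced by heat and other stress.

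All 7 HFD samples had the transcripts that define islets. Ins1 and Ins2, both encoding insulin, took 24.2% of read pairs on genes in HFD replicate 1 and 27.8% to 29.6% in the other 6 samples, and the hormone transcripts of α-cells (Gcg), δ-cells (Sst) and PP cells (Ppy) were abundant in each. Read pairs on genes ranged from 27618749 in HFD replicate 1 to 44041180 in HFD replicate 2. Transcripts of exocrine acinar cells, of which 18 markers were measured, took from 0.0175% of read pairs (HFD replicate 2) to 0.743% (HFD replicate 1), with means of 0.275% ± 0.325 (SD, n = 4) in replicates 1 to 4 and 0.213% ± 0.248 (SD, n = 3) in 5 to 7 (exact two-sided permutation test over 35 splits, p = 0.8). In RD islets the same share was 0.0773% in replicates 1 to 4 and 0.614% in 5 to 7. The list median of the split was 0.44 in HFD islets and -3.19 in RD islets, where 16 of 18 had an unadjusted p under 0.05 on the lower side (5.3% of all genes), and that of HFD against RD was 2.14 in replicates 1 to 4 and -1.50 in 5 to 7. The summed normalized counts of the markers were 361427 and 262958 in RD replicates 6 and 7. They were 21350 in RD replicate 5 and 9130 to 63853 in RD replicates 1 to 4. The difference in acinar transcripts between the sets of RD samples thus rested on replicates 6 and 7. Only 1 marker was called in RD islets, and it was higher in replicates 1 to 4. With the level of acinar transcripts as a covariate, edgeR called 164 genes between the sets of HFD samples. With the same covariate, HFD against RD gave 835 genes in replicates 1 to 4 (1010 without it). In 5 to 7 it gave 51 (38 without it). Of these 18 markers, 0 were called between the sets of HFD samples. No library was a copy of another, because the chi-square statistic per gene between pairs of HFD samples was at least 11.01. In these bulk samples fewer cells of a type and less RNA per cell cannot be told apart.

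Islets on the same diet differed in Txnip and its relative Arrdc4, in single transcripts such as Gpx3, Prdx4 and Chgb, and in some of the mitotic and heat shock genes. Of 27229 genes tested, 151 passed an adjusted p under 0.01 between HFD replicates 1 to 4 and 5 to 7 (0.555%), by edgeR's quasi-likelihood test with Benjamini-Hochberg adjustment. Of these, 47 were lower in replicates 1 to 4 (0.173%) and the others were higher (0.382%). In every called gene the 4 samples of the first set lay on one side of the 3 samples of the second, as did 6.91% of all genes with the first set above and 6.34% with it below. The median size of the difference among the 151 genes was 0.75 on the log2 scale with a median SE of 0.13. The same split called 13 genes in RD islets (0.0477%) and 11 genes in HFD-O304 islets (0.0404%), all of them higher in replicates 1 to 4. At an unadjusted p under 0.05 the counts were 4329 genes in HFD (15.9%), 3356 in RD (12.3%) and 2144 in HFD-O304 (7.87%).

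The count of 151 rested on individual samples. It fell to 13 without HFD replicate 7, to 37 without HFD replicate 6, to 53 without HFD replicate 1 and to 91 without HFD replicate 2, while leaving out HFD replicate 4 gave 183 and HFD replicate 3 gave 201. DESeq2 called 632 genes, and edgeR called 15 when it was fitted to the 7 HFD samples alone. The 13 genes called without replicate 7 were also called without each other HFD replicate in turn. They were Txnip, Arrdc4, Gpx3, Prdx4, Chgb, Ttr, Slc5a3, Hsph1, Hsp90aa1, Hsp90ab1, Ahsa1, Gad1 and Hpgds.

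**Figure D1:**
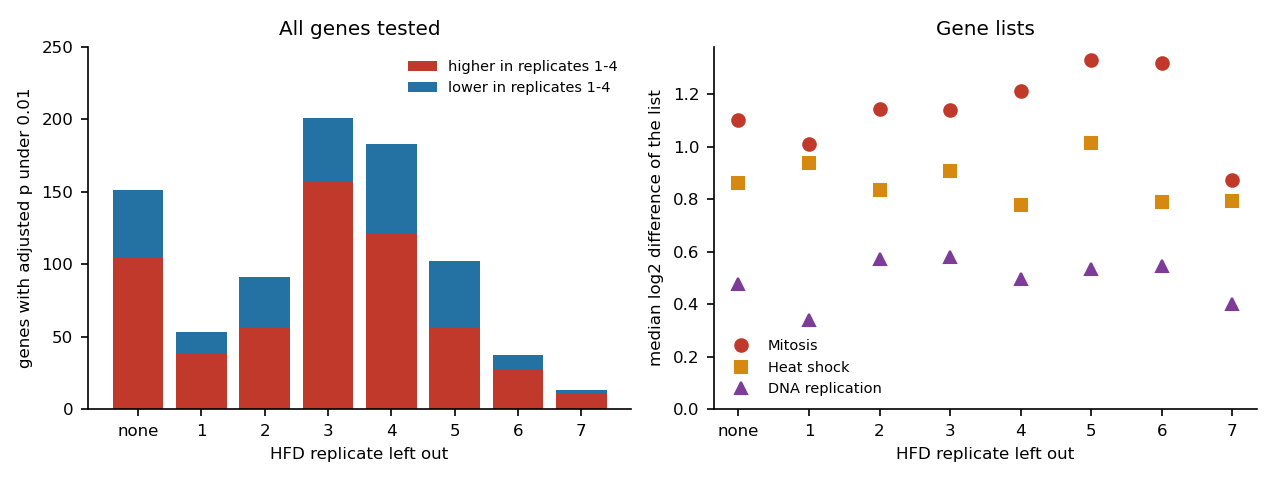
The left panel plots, for the full set and with each HFD replicate left out, the number of genes called between HFD replicates 1 to 4 and 5 to 7, and the right panel the median log2 difference of 3 gene lists under the same settings. The count ranged from 13 to 201, while the Mitosis, Heat shock and DNA replication medians stayed above 0.

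Txnip (ENSMUSG00000038393, chr3:96557957-96561883, GRCm38) had 20996, 25890, 30496 and 14665 normalized counts in HFD replicates 1 to 4 and 8970, 8077 and 6859 in replicates 5 to 7. The lowest of the first set was well above the highest of the second. The difference was 1.53 ± 0.18 on the log2 scale (SE, edgeR adjusted p = 4.1e-05), and was 0.13 in RD and 0.31 in HFD-O304 islets, neither called. Arrdc4 (chr7:68736995-68749241), an α-arrestin related to Txnip that also restrains glucose uptake, had 1642, 1552, 1714 and 1294 normalized counts in replicates 1 to 4 and 726, 700 and 558 in 5 to 7. All 4 samples of the first set were again above all 3 of the second, by 1.22 ± 0.12 (SE, adjusted p = 1.9e-06), while RD islets differed by 0.13. Against RD islets of the same numbers, Arrdc4 was higher in HFD by 1.20 in replicates 1 to 4 and by 0.11 in 5 to 7, and Txnip by 1.69 and 0.30.

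The promoters of this pair are shown because ChREBP and its relative MondoA are known to act on both genes through carbohydrate response elements. Each run is the 250 bases before the RefSeq start on GRCm38.p6, read on the gene's strand, 5′ to 3′. Capitals mark CCAAT or its reverse complement ATTGG, the box bound by NF-Y, and 2 copies of CACGNG with 5 bases between them, a pair of E-box-like units spaced as in carbohydrate response elements, with both strands searched.
Txnip, chr3:96557707-96557956, plus strand: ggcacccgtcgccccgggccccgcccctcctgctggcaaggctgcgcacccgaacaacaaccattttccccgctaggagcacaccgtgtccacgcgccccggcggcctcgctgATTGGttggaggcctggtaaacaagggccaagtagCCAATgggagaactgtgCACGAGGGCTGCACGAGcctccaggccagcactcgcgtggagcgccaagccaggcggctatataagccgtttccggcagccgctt
Arrdc4, chr7:68749239-68749488, minus strand: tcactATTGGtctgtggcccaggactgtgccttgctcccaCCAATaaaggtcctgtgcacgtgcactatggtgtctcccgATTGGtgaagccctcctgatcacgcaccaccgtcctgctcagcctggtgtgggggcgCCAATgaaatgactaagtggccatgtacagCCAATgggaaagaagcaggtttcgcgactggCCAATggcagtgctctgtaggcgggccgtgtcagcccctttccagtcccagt
The paired form occurred in Txnip between 2 CCAAT boxes and the start, and in 14 of 27025 genes with a RefSeq promoter (0.0518%). Arrdc4 held 6 CCAAT boxes and no match to the paired form in this window, whose letters are stricter than the sites ChREBP is known to bind. CCAAT occurred in 37.5% of all promoters.

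A few antioxidant and secretory granule genes were among the calls. Of 20 genes of oxidative stress defence 1 was called, Gpx3, and the list median was 0.05 (0.12 in RD islets). Of 18 genes of insulin granules and hormone processing, 2 were called, both higher. Over all genes 0.382% were called higher. Gpx3 (chr11:54902453-54910377), a secreted glutathione peroxidase, had 62445, 52064, 55609 and 63705 normalized counts in HFD replicates 1 to 4 and 36715, 30911 and 29766 in 5 to 7. The difference was 0.84 ± 0.08 (SE, adjusted p = 1.9e-06) against 0.18 in RD islets. Chgb (chr2:132781278-132795079), a granin that helps granules form, had 185209, 157353, 163582 and 184478 normalized counts in replicates 1 to 4 and 90735, 85781 and 66963 in 5 to 7, a difference of 1.08 ± 0.11 (SE, adjusted p = 2.2e-06) against 0.34 in RD islets. Both sets were tight for these genes, and the gap between them was wider than the spread inside either. Prdx4, the peroxiredoxin of the ER, was higher by 0.70 ± 0.08 (SE), with 1325 to 1550 normalized counts in replicates 1 to 4 and 804 to 907 in 5 to 7, and differed by 0.11 in RD islets.

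**Figure D2:**
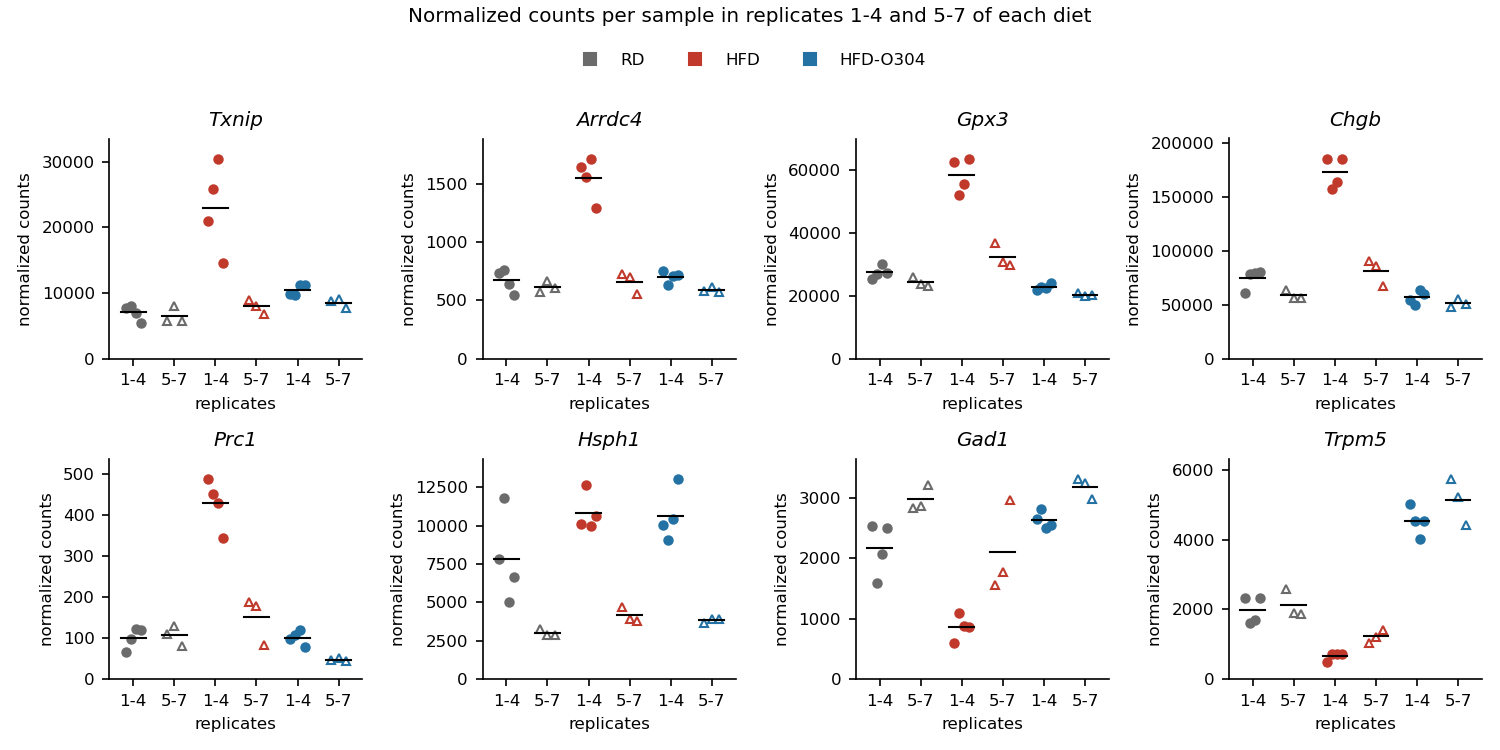
Normalized counts of 8 genes in every sample, with filled circles for replicates 1 to 4, open triangles for replicates 5 to 7 and a bar at the mean of each set, in RD (grey), HFD (red) and HFD-O304 (blue) islets. For Txnip, Arrdc4, Gpx3 and Chgb, HFD replicates 1 to 4 lie above the other 17 samples, while Hsph1 is split by replicate number in all 3 diets.

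Whether the split differed between diets was tested with the interaction term. For 0 of 27229 genes did the difference in HFD islets differ from that in RD islets at an adjusted p under 0.01 by edgeR (1862 genes, 6.84%, at an unadjusted p under 0.05), and DESeq2 called 8. Against HFD-O304 islets the counts were 0 by edgeR (1314 genes, 4.83%, unadjusted) and 12 by DESeq2. The smallest p against RD was that of Arrdc4, whose split was larger in HFD by 1.09 ± 0.16 (SE, adjusted p = 0.0128), followed by Gpx3 with 0.66 ± 0.11 (SE, adjusted p = 0.028). Txnip gave 1.40 ± 0.24 (adjusted p = 0.057), Prdx4 0.60 ± 0.11 (adjusted p = 0.074) and Gpsm1, a regulator of G protein signalling, an adjusted p of 0.074. Against HFD-O304 the 5 smallest p were those of Chgb (0.94 ± 0.15, adjusted p = 0.0187), Gpx3 (0.68 ± 0.11, adjusted p = 0.0187), Arrdc4 (0.96 ± 0.16, adjusted p = 0.0301), Arhgap36 (1.06, adjusted p = 0.099) and the metallothionein gene Mt2 (-1.38, adjusted p = 0.099). These counts of 0 depended on the setting. Arrdc4 passed against both diets with DESeq2, with no filter on low counts and without HFD replicate 4, and Txnip passed against RD under the same settings. Against RD, Arrdc4 also passed with DESeq2's size factors in edgeR, with unstranded or thinned counts, and without HFD replicate 5 or RD replicate 2, and did not pass in a fit of the compared samples alone (adjusted p = 0.11).

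RD and HFD-O304 islets share no sample with HFD islets, so their splits can be set beside the HFD calls. Of the genes called higher in HFD replicates 1 to 4, 94 had the same sign in RD islets and 97 in HFD-O304 islets, and 50 and 58 of them had an unadjusted p under 0.05 there (7.03% and 4.17% of all genes in that direction). The median difference of these genes was 0.75 in HFD, 0.24 in RD and 0.29 in HFD-O304. Of the 47 lower genes, 42 had the same sign in RD and 44 in HFD-O304, 22 and 23 of them at an unadjusted p under 0.05 (5.3% and 3.7% of all genes), with medians of -0.68 in HFD, -0.22 in RD and -0.27 in HFD-O304. The HFD medians are those of genes chosen for their size in HFD, and are therefore larger by selection. Most of the genes thus split by replicate number in the same direction in the diets they were not chosen in, at smaller median sizes. Over all 27229 genes tested, 13105 were higher in replicates 1 to 4 in RD islets and 13611 in HFD-O304 islets. The Mitosis list did not share the direction in RD islets, where 17 of its 32 genes were higher and the median was 0.01.

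**Figure D3:**
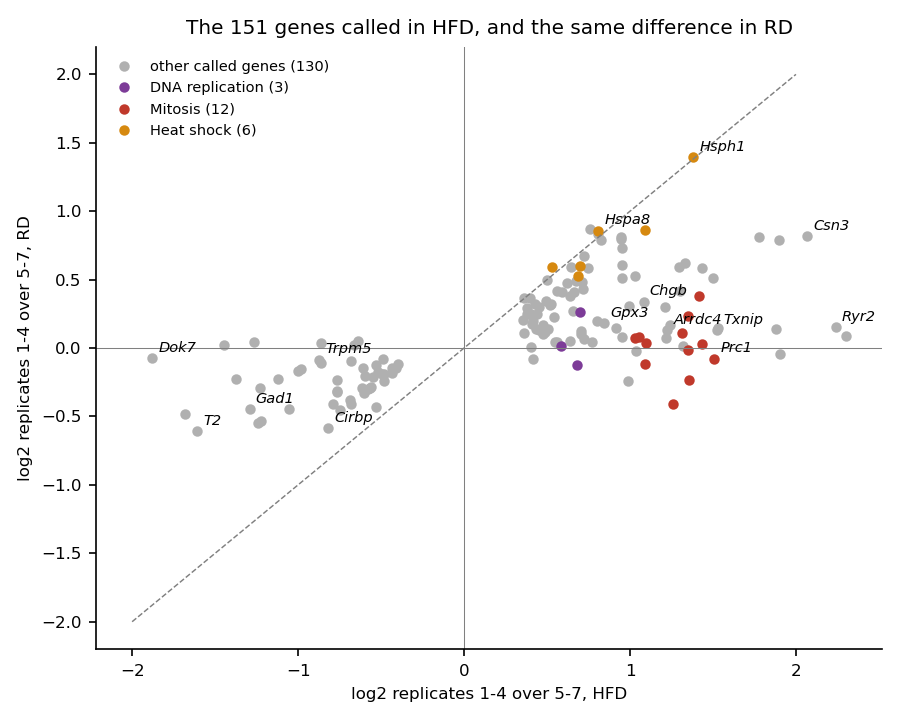
Each point is 1 of the 151 genes called between HFD replicates 1 to 4 and 5 to 7, with its log2 difference in HFD islets on the x axis and the same difference in RD islets on the y axis. Heat shock genes lie near the dashed line of equal difference, and the 12 Mitosis genes lie between -0.41 and 0.38 on the RD axis.

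Cell cycle genes made up the largest listed group. Of 32 Mitosis genes, 12 were called and all 12 were higher in replicates 1 to 4 (0.382% of all genes). The median difference of the list was 1.10 against -0.01 over all genes tested, all 32 genes had an unadjusted p under 0.05, and 30 had every sample of replicates 1 to 4 above every sample of 5 to 7 (6.91% of all genes). The called count depended on single samples, with 0 called without HFD replicate 7, 3 without replicate 1, 5 without replicate 2 and 5 without replicate 5, 6 without replicate 6, and 9 and 14 without replicates 3 and 4, although the median stayed between 0.87 and 1.33.

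Prc1 (chr7:80294450-80316259), which bundles microtubules at the midzone of dividing cells, had 489, 452, 429 and 345 normalized counts in HFD replicates 1 to 4 and 189, 179 and 83.4 in 5 to 7. Its difference was 1.51 ± 0.23 (SE, adjusted p = 0.00099). Mki67 (chr7:135689784-135716361), the proliferation antigen Ki-67, had 1221, 958, 1013 and 677 in replicates 1 to 4 and 510, 456 and 196 in 5 to 7, a difference of 1.31 ± 0.25 (SE, adjusted p = 0.0058). In RD islets these splits were -0.08 and 0.11. In both genes HFD replicate 7 was the lowest sample and lay in the range of RD islets, 66.2 to 129 for Prc1 and 169 to 297 for Mki67. Ccnb1, the cyclin that brings cells into mitosis, was higher by 1.41 ± 0.23 (SE), and Hmmr, a spindle protein, by 1.43 ± 0.27 (SE). Cenpf and Cenpe of the kinetochore were higher by 1.35 and 1.26, and Tpx2, Nusap1, Aurka, Ccna2, Anln and Kif20a by 1.03 to 1.36. Ndc80, also of the kinetochore, had a difference of 1.49 that was not called (adjusted p = 0.032).

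The promoters of Prc1 and Mki67 are shown because cell cycle genes are known to share 2 elements near their starts, CCAAT and TTTGAA, the latter known as the cell cycle genes homology region (CHR). Capitals mark them on either strand in the 250 bases before the start, for Prc1 the second of 2 RefSeq starts.
Prc1, chr7:80294226-80294475, plus strand: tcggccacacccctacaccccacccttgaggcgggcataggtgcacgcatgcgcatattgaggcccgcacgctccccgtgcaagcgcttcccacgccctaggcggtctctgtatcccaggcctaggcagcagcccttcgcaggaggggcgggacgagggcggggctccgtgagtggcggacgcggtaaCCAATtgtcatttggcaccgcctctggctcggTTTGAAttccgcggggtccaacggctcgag
Mki67, chr7:135716380-135716629, minus strand: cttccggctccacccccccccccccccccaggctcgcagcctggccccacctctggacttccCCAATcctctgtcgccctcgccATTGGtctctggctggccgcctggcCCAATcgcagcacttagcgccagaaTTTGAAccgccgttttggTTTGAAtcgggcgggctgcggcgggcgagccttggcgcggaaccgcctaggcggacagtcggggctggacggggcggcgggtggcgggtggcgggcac
Prc1 held 1 of each, and Mki67 held 3 CCAAT and 2 TTTGAA matches. Of 28 Mitosis genes with a RefSeq promoter, 23 held CCAAT (82.1%, against 37.5% of all promoters) and 10 held TTTGAA (35.7%, against 18.3%). The CCAAT share was not particular to this list. It was 88% in 25 ER folding genes, 67.9% in 28 DNA replication genes and 55.6% in 9 heat shock genes. TTTGAA occurred in 17.9% of the DNA replication genes, 4% of the ER genes and 0 of the heat shock genes. A match is a description of the letters and was not tested for binding.

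DNA replication genes differed less. Of 34, 3 were called, all higher in replicates 1 to 4 (0.382% of all genes), with a list median of 0.48, and 26 had an unadjusted p under 0.05 (8.68% of all genes). Among them were Mcm7 of the replicative helicase (0.59 ± 0.10, SE) and the thymidylate synthase gene Tyms (0.70 ± 0.14, SE). Without HFD replicates 1, 6 or 7 the called count was 0, without replicate 5 it was 1, and without replicate 3 it was 8. Clspn, Pole and Uhrf1 had the largest differences of the list, 1.36, 1.19 and 1.17, and none was called. Of 27 cell cycle regulators only the G1/S cyclin Ccne2 was called, higher by 0.71 ± 0.13 (SE).

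In RD islets, the median difference between the same sets was 0.01 for Mitosis and 0.14 for DNA replication, with 0 called genes in either list. By edgeR, 0 and 6 genes had an unadjusted p under 0.05 (7.03% of all genes on the higher side). In HFD-O304 islets the medians were 0.69 and 0.12, again with 0 called genes, but all 32 Mitosis genes were higher in replicates 1 to 4 and 20 of them had an unadjusted p under 0.05 (4.17% of all genes), as had 5 DNA replication genes. Against RD islets of the same numbers, the Mitosis median was 1.79 in replicates 1 to 4. All 32 genes were called higher there (2.15% of all genes). In 5 to 7 the Mitosis median was 0.64, and 0 of 32 were called. There 17 had an unadjusted p under 0.05 (7.66% of all genes on the higher side). The DNA replication medians were 0.63 in replicates 1 to 4, with 17 genes called higher, and 0.28 in 5 to 7, with 0 called. Relative to the RD mean, the average level of the Mitosis list was 2.07, 1.81, 1.77 and 1.42 higher in HFD replicates 1 to 4 on the log2 scale, 0.90 and 0.95 higher in replicates 5 and 6, and -0.11 in replicate 7. Replicates 5 and 6 thus lay above every RD sample for this list, and replicate 7 lay among the RD samples.

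**Figure D4:**
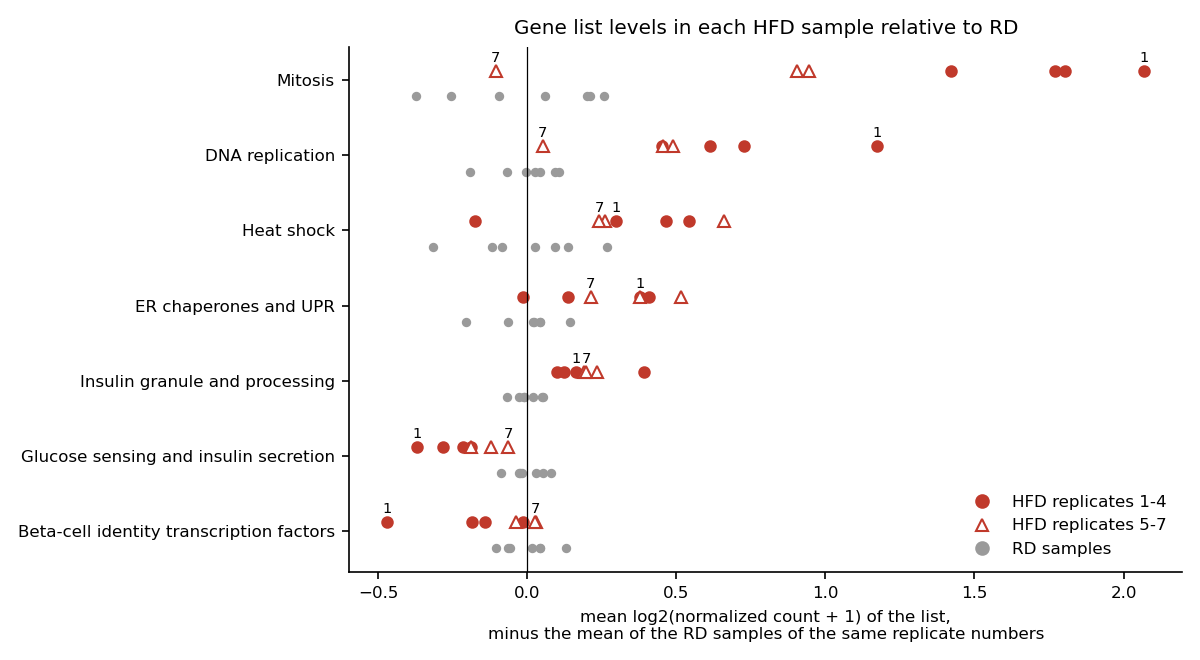
Each HFD sample's mean log2(normalized count + 1) over 7 gene lists, minus the mean of the RD samples of the same replicate numbers, with replicates 1 and 7 numbered and RD samples in grey. Mitosis ranges from -0.11 in HFD replicate 7 to 2.07 in replicate 1, while ER and heat shock genes do not separate the 2 sets once they are taken relative to RD.

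Heat shock genes differed between the sets in every diet. Of 12, 6 were called in HFD islets, all higher in replicates 1 to 4 (0.382% of all genes). The called count was 3 without HFD replicate 7 and 4 without replicate 2 or 6. It was 5 without replicate 1, 4 or 5 and 8 without replicate 3. All 12 had an unadjusted p under 0.05 (8.68% of all genes in that direction). The list median was 0.86 in HFD, 0.86 in RD and 0.74 in HFD-O304 islets. In each of the other diets 4 of 12 were called (0.0477% of all genes in RD and 0.0404% in HFD-O304). Hsph1 (chr5:149614287-149636376), a cytosolic chaperone of the HSP110 class, had 10133, 12661, 9971 and 10622 normalized counts in HFD replicates 1 to 4 and 4722, 3942 and 3792 in 5 to 7. It was higher by 1.38 ± 0.18 (SE, adjusted p = 0.00021) in HFD, by 1.39 in RD and by 1.47 in HFD-O304. Hsp90aa1 and Hsp90ab1, the cytosolic HSP90 pair, were higher by 1.09 ± 0.11 and 0.70 ± 0.09 (SE), and Hspa8, Dnaja1 and Hspe1 by 0.81, 0.69 and 0.53. The HSP90 cochaperone Ahsa1 was higher by 0.73 ± 0.10 (SE), with 3170 to 3658 normalized counts in replicates 1 to 4 and 2006 to 2057 in 5 to 7.

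The strongly inducible Hspa1a and Hspa1b had the largest differences of the list, 2.32 and 2.30, and were not called (adjusted p = 0.068 and 0.049). Heat shock genes took 0.301% ± 0.0226 (SD, n = 4) of read pairs in HFD replicates 1 to 4 and 0.179% ± 0.00931 (SD, n = 3) in 5 to 7, without overlap (exact two-sided permutation test, p = 0.0571, the smallest that 35 splits allow, and 0.257 after Benjamini-Hochberg adjustment over 9 measures). Relative to RD islets of the same numbers the 2 sets of HFD samples overlapped, with -0.18 to 0.54 in replicates 1 to 4 and 0.24 to 0.66 in 5 to 7, and the list median of HFD against RD was 0.25 and 0.32. The immediate early genes, which respond to stimulation within minutes, had 0 of 18 called and a median of -0.15 in HFD islets (0.06 in RD). Cirbp, an RNA-binding protein induced by cold, had a difference of -0.82 ± 0.14 (SE, adjusted p = 0.0027), and had the same sign in RD (-0.59) and HFD-O304 islets (-0.66). It was chosen after its values were seen. The heat shock difference thus moved with the replicate number in every diet, and its part in the other differences of HFD islets was not tested.

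The promoters of Hspe1 and Hsph1 are shown because heat shock factor binds inverted repeats of GAA. Capitals mark GAANNTTC or TTCNNGAA, a pair of such units, in the 250 bases before the start, for Hsph1 the first of 2 RefSeq starts.
Hspe1, chr1:55087898-55088147, plus strand: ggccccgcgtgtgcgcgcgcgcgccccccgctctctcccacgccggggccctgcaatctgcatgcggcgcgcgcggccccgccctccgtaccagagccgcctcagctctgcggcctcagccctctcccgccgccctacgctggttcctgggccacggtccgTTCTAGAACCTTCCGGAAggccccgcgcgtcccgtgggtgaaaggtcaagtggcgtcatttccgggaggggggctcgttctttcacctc
Hsph1, chr5:149636337-149636586, minus strand: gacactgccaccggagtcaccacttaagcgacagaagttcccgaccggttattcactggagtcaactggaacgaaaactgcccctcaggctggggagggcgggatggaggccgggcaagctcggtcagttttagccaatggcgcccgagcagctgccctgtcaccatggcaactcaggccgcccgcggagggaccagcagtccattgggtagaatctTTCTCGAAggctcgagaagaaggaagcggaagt
Hspe1 held 3 overlapping pairs and Hsph1 held 1. Of 9 heat shock genes with a RefSeq promoter, 7 held such a pair (77.8%, against 14.6% of all promoters), as did 3 of 28 Mitosis genes.

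Genes of ER folding and of the unfolded protein response gave 1 call, lost when most single HFD samples were left out. Of 30, Hsp90b1, the HSP90 of the ER lumen, was higher in HFD replicates 1 to 4 by 0.59 ± 0.12 (SE, adjusted p = 0.0085), with 57313 to 94179 normalized counts against 42895 to 54589 in 5 to 7. Hsp90b1 lost its call without each of HFD replicates 1, 2, 4, 5, 6 and 7, when 0 of the 30 genes were called, and without replicate 3 there were 9 calls. The list median was 0.34, and 21 genes had an unadjusted p under 0.05, all of them higher (8.68% of all genes). In RD islets the median was 0.47 with 28 of 30 at an unadjusted p under 0.05 (7.03% of all genes), and in HFD-O304 islets it was 0.17. Against RD islets of the same numbers the list median was 0.21 in HFD replicates 1 to 4 and 0.36 in 5 to 7. Creld2, Derl3 and Pdia6 had the largest differences beside Hsp90b1, 0.78, 0.66 and 0.61, and were not called. Of 23 genes of the integrated stress response, edgeR called 0, with a median of 0.20 in HFD and 0.34 in RD islets. At an unadjusted p under 0.05, 8 were higher and 1 lower in HFD islets (8.68% and 7.22% of all genes). In RD islets 14 were higher (7.03% of all genes).

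Of 20 transcription factors of β-cell identity, edgeR called 0. Over these genes the median difference was -0.12 (-0.03 in RD islets), and 4 had an unadjusted p under 0.05, all lower in replicates 1 to 4 (7.22% of all genes). Mafa, which drives insulin transcription in mature β-cells, had 4615, 4765, 5245 and 8956 normalized counts in HFD replicates 1 to 4 and 9599, 8481 and 13329 in 5 to 7. Only replicate 4 overlapped with the second set, and the difference of -0.83 ± 0.21 (SE) did not pass (adjusted p = 0.035). Without HFD replicate 4 it was -1.11 and passed (adjusted p = 0.003), and it passed with no filter on low counts. In RD islets Mafa differed by 0.07. Differences for Pdx1, Nkx6-1, Isl1, Neurod1 and Foxo1 lay between -0.12 and -0.05, none of them called. The list was low in HFD replicate 1, at -0.47 relative to RD, whereas the other 6 HFD samples lay between -0.18 and 0.03.

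Among 24 genes of glucose sensing and insulin secretion, 1 was called. Trpm5 (chr7:143069153-143094642), a calcium-activated cation channel that adds to glucose-induced secretion, had 479, 726, 729 and 732 normalized counts in HFD replicates 1 to 4 and 1040, 1218 and 1408 in 5 to 7. All 7 samples lay below the RD range of 1620 to 2574, the first set farther than the second. The difference between the sets was -0.87 ± 0.15 (SE, adjusted p = 0.0037), and that from RD islets was -1.58 in replicates 1 to 4 and -0.79 in 5 to 7. The glucose transporter Slc2a2 had a difference of -0.32 (adjusted p = 0.33), Gipr one of -0.47 and Stx1a one of -0.40, none called. The list median was -0.14, against -0.02 in RD islets, where Trpm5 itself differed by -0.08.

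Of 18 granule and hormone processing genes, Chgb and Iapp were called, Iapp (islet amyloid polypeptide) with 1535168 to 2181290 normalized counts in HFD replicates 1 to 4 and 1230299 to 1386338 in 5 to 7, a difference of 0.43 ± 0.09 (SE) against 0.14 in RD islets. The list median was 0.22 in HFD and 0.12 in RD islets. Ins1 and Ins2 did not pass, with differences of -0.02 ± 0.07 and -0.02 ± 0.06 (SE). Chga and Scg2, which with Ins1, Ins2 and Iapp had most reads, had differences of 0.13 and 0.29 and were not called. Ucn3, a peptide of mature β-cells, had 9660, 14102, 14501 and 15842 normalized counts in replicates 1 to 4 and 17651, 17516 and 22706 in 5 to 7. These sets did not overlap, and the difference of -0.52 ± 0.13 (SE) did not pass (adjusted p = 0.03). The difference of Ucn3 in RD islets was -0.02. With no filter on low counts, where edgeR called 987 genes, Ucn3, Scg2 and Slc2a2 passed, as Mafa did.

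Among 23 markers of dedifferentiation and β-cell stress, Txnip was higher and Neurog3, the transcription factor of endocrine progenitors, was lower in replicates 1 to 4. Over all genes 0.382% were called higher and 0.173% lower. The list median was -0.02 in HFD and -0.01 in RD islets. Neurog3 had 68.0, 62.4, 57.2 and 47.0 normalized counts in HFD replicates 1 to 4 and 90.7 to 151.2 in 5 to 7, without overlap (adjusted p = 0.009), and differed by -0.17 in RD islets. Aldh1a3, an enzyme of failing β-cells, overlapped between the sets, with 5698 to 9044 normalized counts in replicates 1 to 4 and 4934 to 7706 in 5 to 7, and its difference of 0.27 ± 0.27 (SE) was not called. Against RD islets it was higher by 1.80 in replicates 5 to 7 (adjusted p = 0.0048) and by 1.01 in 1 to 4, where it did not pass (adjusted p = 0.011). HFD islets were not higher in 5 to 7, so the larger difference there reflects a lower RD level in 5 to 7 than in 1 to 4. It does not show a stronger rise in HFD replicates 5 to 7. The gastrointestinal hormones Cck and Gast and the gene Dapl1 had differences of 2.37, 1.15 and 1.08 and were not called (adjusted p = 0.019, 0.045 and 0.018). Cck had 51.0, 146, 292 and 50.1 normalized counts in HFD replicates 1 to 4, 41.6, 19.7 and 17.4 in 5 to 7, and 1.07 to 9.23 in RD islets.

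The largest increases in replicates 1 to 4, among called genes with at least 50 normalized counts on average in HFD islets, were those of Ryr2 (2.24), a calcium release channel, Csn3 (2.07), the milk protein κ-casein, and Ros1 (1.91), a receptor tyrosine kinase. Ryr2 had 179.9, 97.97, 107.5 and 72.1 normalized counts in HFD replicates 1 to 4, and 33.0, 29.5 and 9.56 in 5 to 7. Csn3 had 218, 126, 163 and 172 in replicates 1 to 4 and 58.5, 38.2 and 23.5 in 5 to 7. The RD splits were 0.15 for Ryr2 and 0.82 for Csn3. In both genes HFD replicate 7 lay within the RD range, and the other samples lay above it. B230216N24Rik, Slc5a10, Mdga1, Morc1, Txnip and Prc1 followed with differences of 1.51 to 1.90, and then Apob, the apolipoprotein of lipoprotein secretion, with 105.1 to 228 normalized counts in replicates 1 to 4 and 42.6 to 76.4 in 5 to 7. B230216N24Rik, the fourth of these, overlaps the locus of the peptide-amidating enzyme Pam (chr1:97795114-98095646, same strand), which was itself higher by 0.47 ± 0.10 (SE), and read pairs matching both genes are left out of the counts.

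The largest decreases were those of Dok7 (-1.88), an adaptor of the receptor kinase MuSK, Cib3 (-1.68), a calcium-binding protein, and T2 (-1.61). Dok7 had at most 42.5 normalized counts in HFD replicates 1 to 4 and 67.0, 116.8 and 155 in 5 to 7, the latter within the RD range of 66.0 to 182. Cib3 had 34.0, 155, 83.4 and 98.1 in replicates 1 to 4 and 240, 313 and 365 in 5 to 7. Both genes were lower than in RD islets in replicates 1 to 4 (-1.95 and -1.38, both called) and not called in 5 to 7 (-0.14 and -0.18). Gad1 (chr2:70553072-70602014), which makes GABA from glutamate and is expressed in β-cells, had 605, 1091, 878 and 858 normalized counts in replicates 1 to 4 and 1560, 1777 and 2969 in 5 to 7, a difference of -1.29 ± 0.18 (SE, adjusted p = 0.00031) against -0.45 in RD islets. Lingo3, Gm45847, Msln, Hpse, Ltbp2 and Sult1c2 had differences of -1.45 to -1.22.

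Other lists gave few calls. Among 10 α-cell markers Ttr (transthyretin) and Gc (vitamin D-binding protein) were higher in replicates 1 to 4 by 0.99 ± 0.13 and 0.80 ± 0.14 (SE). Gcg, the defining transcript of α-cells, was not called, and had 289699 to 560638 normalized counts in replicates 1 to 4 and 325715 to 608460 in 5 to 7. The median of the α-cell list was -0.25 in HFD and -0.13 in RD islets. Of 16 circadian clock genes the output factor Tef was lower, with a difference of -0.68 ± 0.14 (SE), 9 had an unadjusted p under 0.05 on the lower side (7.22% of all genes), and the list medians were -0.41 in HFD, -0.08 in RD and -0.06 in HFD-O304 islets. Its relatives Dbp and Hlf had differences of -0.86 and -0.81 and did not pass (adjusted p = 0.022 for both). P4ha1 of the hypoxia list, Ccn2 of the β-cell proliferation signals and Rplp0 of the ribosomal list were higher by 0.75, 0.95 and 0.40, with RD splits of 0.59, 0.81 and 0.37. Markers of δ-cells, PP cells, ducts, endothelium, macrophages, lymphocytes, mesenchyme, Schwann cells, erythrocytes and adipocytes gave 0 calls between the sets of HFD islets.

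The response to diet was compared between the sets, which share no sample. Against RD islets of the same numbers, edgeR called 1010 genes in replicates 1 to 4 (3.71%, of which 585 were higher in HFD, 2.15%, and 425 lower, 1.56%) and 38 in 5 to 7 (0.14%, of which 20 were higher, 0.0735%, and 18 lower, 0.0661%). The second count was 165 without HFD replicate 7, 0 without HFD replicates 5 or 6 or RD replicates 5 or 7, and 1 without RD replicate 6, so that it says little of the size of the response. The 585 higher genes had a median difference of 0.76 in the samples that chose them and 0.38 in replicates 5 to 7, and 564 of them (96.4%) had the same sign there. The 425 lower genes had medians of -0.62 and -0.35, with 414 (97.4%) of the same sign. In the opposite direction, the 20 higher genes called in replicates 5 to 7 had a median of 0.89 there and 0.90 in 1 to 4, and the 18 lower genes -0.84 and -0.86, and all 38 had the same sign. A set of genes chosen in one set of samples is larger there by selection, so the first pair of medians overstates the gap, and the second pair understates it.

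Among HFD replicates 5 to 7, replicate 7 showed the smallest response over the genes called in 1 to 4. It was not the smallest of all HFD samples in every list. For ER and heat shock genes replicate 3 lay lower, at -0.02 and -0.18 relative to RD, against 0.21 and 0.24 in replicate 7. Over the 585 higher genes the median level of replicate 7 was 0.17 above RD replicates 5 to 7. Replicates 5 and 6 were 0.50 and 0.46 above, and individual RD samples lay between -0.08 and 0.08. Over the 425 lower genes the medians were -0.52 in replicate 5, -0.35 in replicate 6 and -0.18 in replicate 7. Over all genes, the distance of HFD samples from the mean RD profile of their set was 28.0 for replicate 7 and 33.2 for replicate 6. Both lay within the 23.9 to 33.6 of the RD samples themselves, though only RD replicate 5 was farther than HFD replicate 6. Each RD sample was measured against the other RD samples of its set, 3 in 1 to 4 and 2 in 5 to 7. HFD samples were measured against 4 and 3, so the distances are not on an equal footing. The other 5 HFD samples lay between 35.6 and 50.8, with replicate 1 farthest. The spread of the diet difference over 13243 genes with at least 50 normalized counts was 0.38 in replicates 1 to 4 and 0.29 in 5 to 7 (SD of log2 differences, across genes). Pairs of HFD samples were 36.2 to 52.7 apart within replicates 1 to 4, 33.0 to 35.8 within 5 to 7 and 35.04 to 54.6 between the sets, so that samples of the first set were as far from each other as from the second.

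**Figure D5:**
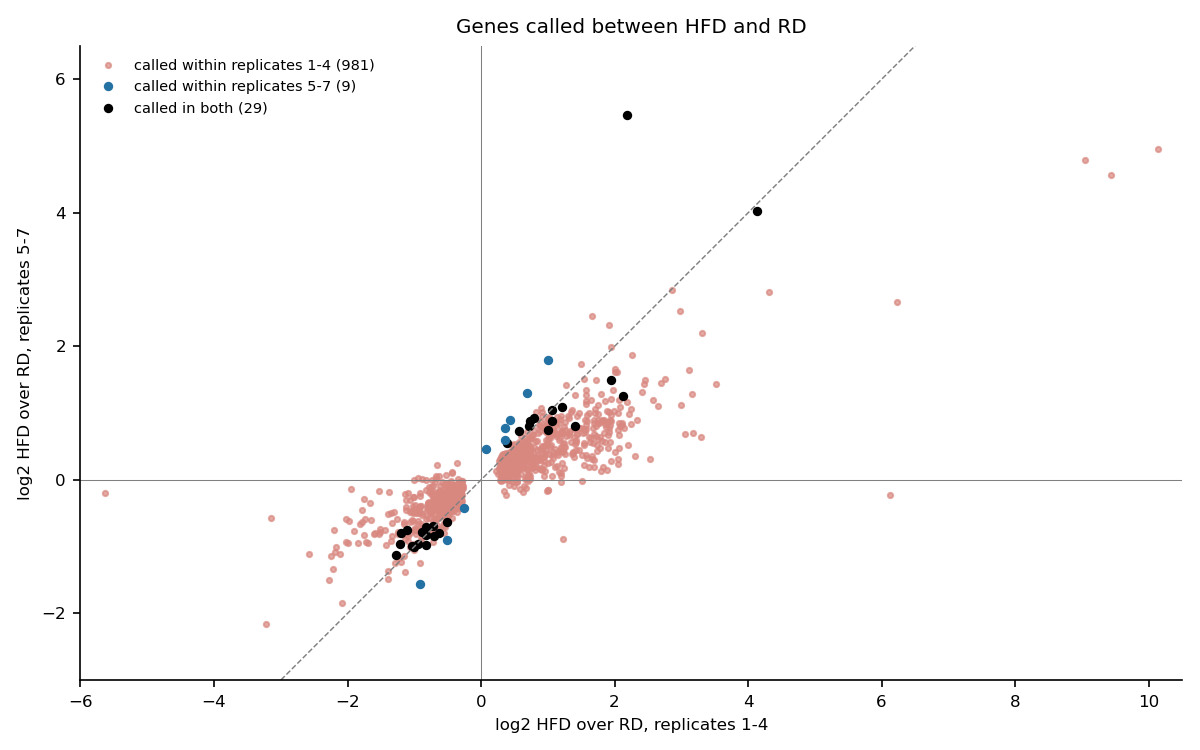
Log2 difference between HFD and RD islets in replicates 1 to 4 (x axis) and 5 to 7 (y axis) for the genes called in either, with a dashed line of equal difference. Most of the genes called in replicates 1 to 4 lie on the same side of 0 in both sets and closer to 0 in 5 to 7, and the genes called in 5 to 7 lie on both sides of the line.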

How the data were processed

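Counts of read pairs per gene (STAR, GRCm38, Ensembl 96) were deposited by the authors without normalization for 21 samples. FastQC and STAR are named in the submitters' processing notes without versions. The fourth column of the file was used, the count on the second-read strand, since it held 28.8 to 36.3 times the count of the other strand. Read pairs matching several places or genes are not in these counts, so paralogs and overlapping genes are measured in part. Read pairs on genes ranged from 13809266 to 48922569.

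All 55536 identifiers matched the annotation, and 27229 genes with at least 10 reads over all samples were tested with edgeR 4.0.16 (quasi-likelihood, TMM, 6 groups of diet by replicate set in 1 fit) under R 4.3.3, and an adjusted p (Benjamini-Hochberg) under 0.01 was the threshold. Differences are replicates 1 to 4 minus 5 to 7 on the log2 scale. Nothing in the labels says that samples were separate experiments, so p-values measure the spread between these pools. Normalized counts are counts over DESeq2 1.42.0 size factors, and distances are Euclidean over values from DESeq2's variance stabilizing transformation. The authors' tool, DESeq2, was an alternative, as were the filter, normalization, strand, threshold, depth, samples in the fit, replicate block and each sample left out. Alternatives are given in the closing section.

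Named genes were called list members, the 3 largest differences in a described list, the 10 largest called increases and decreases, the 5 smallest interaction p-values, genes the study plots and the 5 with most reads. A gene of the DNA replication list is counted but not reported here by itself. Members and lists were chosen with earlier results of these data known. On counts simulated for this comparison with 200 of 27229 genes changed, edgeR recovered 36 of 103 genes changed by 0.5 and 86 of 97 changed by 1 on the log2 scale, with 4 false calls. The changed genes were drawn from those with a mean of at least 50 counts. Counts were drawn independently for each gene, so effects shared by many genes of 1 sample were not simulated.

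The HFD samples had same-numbered deviations from their group means that correlated by -0.55 to 0.46 with RD (mean 0.13, over 0.1 in 5 of 7 pairs). These values do not settle whether the numbers pair samples. The main fit treated samples as unpaired, and a replicate block was an alternative. Promoters came from RefSeq (GRCm38.p6).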

Additional observations from a re-analysis of the deposited data

Results flagged for a closer look

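For 9 values, 1 HFD sample stood apart from the others of its set or of all 7, among 158 sets of values examined, of which chance flags about 1 in 20. HFD replicate 1 was the highest of replicates 1 to 4 for B230216N24Rik, with 372.6 normalized counts against 110.5 to 147.1, and also the highest of all 7. The same sample was lowest of the first set for Trpm5 (478.8 against 725.6 to 731.7) and lowest of all 7 for Nkx6-1 (7222 against 10444 to 12245) and for the share of read pairs on Ins1 and Ins2 (24.2% against 27.8% to 29.6%). HFD replicate 4 was the highest of its set for Mafa (8956 normalized counts against 4615 to 5245) and for Chga (597398 against 405766 to 426395), and for Chga also the highest of all 7. HFD replicate 3 was the lowest of its set for Hspe1 (1347 against 1750 to 1818).

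In 3 genes the split by replicate number differed between diets at an adjusted p under 0.05 by edgeR's interaction test, though not under 0.01. For Arrdc4 the split was larger in HFD than in RD islets by 1.09 and than in HFD-O304 islets by 0.96. For Gpx3 the values were 0.66 and 0.68. For Chgb the split exceeded that in HFD-O304 islets by 0.94. In these 3 genes HFD replicates 1 to 4 lay above HFD replicates 5 to 7 in every sample.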

How the results depend on the processing

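The count of genes called between HFD replicates 1 to 4 and 5 to 7 (151) was 645 at an adjusted p under 0.05, 632 by DESeq2, 987 with no filter on low counts, 15 with only the 7 HFD samples fitted, 99 at the depth of the shallowest library and 13 to 201 with each HFD replicate left out. It stayed within 1.5 times of 151 with DESeq2's size factors, filterByExpr, unstranded counts and the acinar covariate. For RD islets (13) DESeq2 gave 287, no filter 507 and leaving out a replicate 0 to 75, and for HFD-O304 islets (11) these gave 42, 185 and 2 to 15. For the interaction with RD (0) the count was 2 at an adjusted p under 0.05, 8 by DESeq2, 209 with no filter, 1 with size factors, thinned or unstranded counts and 0 to 2 with a replicate left out, and for HFD-O304 (0) it was 12 by DESeq2, 86 with no filter and 0 to 2. For HFD against RD in replicates 1 to 4 (1010) the counts were 1923 at an adjusted p under 0.05, 1595 by DESeq2, 1776 with no filter, 468 with only the compared samples and 565 to 1034 with a replicate left out. In replicates 5 to 7 (38) they were 379, 425, 824, 141 and 0 to 165, with 25 under filterByExpr and 18 thinned. The fit with only the compared samples has fewer samples, and otherwise the cause was not tested.

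With replicate number added as a replicate block, the fit gave 2 genes for each interaction (Arrdc4 and Gpx3 against RD, Chgb and Gpx3 against HFD-O304), 1021 for the diet in replicates 1 to 4 and 66 in 5 to 7. Same-numbered deviations from group means correlated by -0.55 to 0.46 with RD (5 of 7 over 0.1) and -0.51 to 0.44 with HFD-O304 (4 of 7 over 0.1). Of 7 HFD samples, 4 correlated best with their own number in RD and 2 in HFD-O304. Whether the numbers pair samples is not settled by these values, and the main fit treated samples as unpaired.

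With each HFD replicate left out, list medians ranged from 0.87 to 1.33 for Mitosis, 0.34 to 0.58 for DNA replication, 0.78 to 1.01 for Heat shock, 0.24 to 0.44 for ER genes, -0.16 to -0.05 for identity factors, -0.18 to -0.10 for glucose sensing, 0.20 to 0.25 for granule genes, -0.49 to -0.30 for clock genes, 0.16 to 0.28 for ribosomal proteins and -0.41 to -0.046 for α-cell markers. The difference in the share of read pairs ranged from 0.114 to 0.132 percentage points for heat shock, 0.00882 to 0.0128 for Mitosis, -2.46 to -0.663 for insulin and -0.0942 to 0.204 for acinar markers. Uncalled differences changed sign without HFD replicate 1 for Ins2 (0.048, range from -0.084), Ins1 (0.036, range from -0.091), Pdx1 (0.022) and Nkx6-1 (0.027, range from -0.21), without replicate 3 for Ins1 (0.0011) and without replicate 4 for Chga (-0.022, range to 0.21). Of the 151 genes, 10 passed under all 16 alternatives, namely Ahsa1, Arrdc4, Chgb, Gpx3, Hsp90aa1, Hsp90ab1, Hsph1, Prdx4, Slc5a3 and Txnip. Thinning every library to the shallowest depth and leaving out single samples both moved the counts, and on simulated counts most differences of 0.5 were missed.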

Other observations

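Transcripts of the secretory pathway outside the lists also passed the threshold, and these were chosen after their values were seen. Nucb2, which encodes nesfatin, was higher in HFD replicates 1 to 4 by 0.95 ± 0.16 (SE), with 33603, 21957, 19752 and 24437 normalized counts there and 14781, 14156 and 9503 in 5 to 7. Tmed3 of cargo transport was higher by 0.72 ± 0.11, Ssr4 of the translocon by 0.64 ± 0.11 and Prkcsh, a subunit of glucosidase II, by 0.62 ± 0.11. Uggt1 and Mlec, which act on glycans of folding proteins, were higher by 0.40 and 0.38. In RD islets the same splits were 0.60 for Nucb2, 0.43 for Tmed3, 0.38 for Ssr4 and 0.47 for Prkcsh. The inositol transporter Slc5a3, which is known to respond to osmotic stress, was higher by 1.29 ± 0.18 in HFD islets, with 369 to 587 normalized counts in replicates 1 to 4 and 176 to 196 in 5 to 7.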
